A study of Mus musculus with 13 samples.

Results

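The enteroendocrine cells of the mouse small intestine described here were 84 single cells, taken from 5 libraries of cells sorted with an antibody gate on CD24 at 8 weeks. They were chosen by transcript levels: a cell was kept when it held at least 3000 transcripts without spike-in RNA, and it counted as enteroendocrine when Chga, Chgb, Cpe and Neurod1 together reached at least 10 of every 10000 of its transcripts while the tuft cell genes Dclk1, Trpm5 and Rgs13 together stayed under 20. The 84 cells were part of 368 kept cells in the 5 libraries and of 892 kept cells in the 13 libraries of the series, where 112 cells in all met the same rule. All mice carried Lgr5-CreERT2 on C57Bl6/J and were crossed to Rosa26LSL-YFP, so that tamoxifen switches on YFP in cells with Lgr5 promoter activity and in their later descendants. The 3 traced libraries held YFP+ cells sorted 8 weeks after tamoxifen from the CD24+ fraction, and the 2 non-traced libraries are labelled as CD24+ control cells of the same time. The labels give neither age nor sex, and they do not say whether libraries came from separate animals, how the non-traced cells were gated on YFP, or how many mice were pooled. The p-values therefore measure only the spread between these libraries, which may be technical. The comparison asks how enteroendocrine cells that descend from Lgr5+ cells marked 8 weeks earlier differ from CD24+ enteroendocrine cells outside that trace.

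Enteroendocrine cells are the hormone-secreting cells of the gut epithelium. They arise in the crypt from secretory progenitors that switch on Neurog3, the transcription factor that starts the endocrine programme, and they then mature into cells that differ in their hormone: enterochromaffin cells make serotonin with the enzyme Tph1 and often the tachykinin precursor Tac1, while other cells make secretin (Sct), cholecystokinin (Cck), the incretin Gip, proglucagon (Gcg), ghrelin (Ghrl) or somatostatin (Sst). Chromogranins (Chga, Chgb) and carboxypeptidase E (Cpe) belong to the secretory granules that most of these cells share, and Neurod1 is an endocrine transcription factor downstream of Neurog3. CD24, encoded by Cd24a, is a surface glycoprotein found on several secretory cell types of the crypt.

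Each library held 96 cell barcodes, the same set in every library by design, and 658918 to 1385266 transcripts. The enteroendocrine cells numbered 19, 18 and 16 in traced replicates 1 to 3 and 19 and 12 in non-traced replicates 1 and 2, and their summed transcripts were 199783, 112054, 102189, 222230 and 71610. Their medians per cell were 7800, 5647 and 5847 in the traced and 9776 and 6439 in the non-traced libraries, so depth did not separate the groups. In a second deposited table the same values stand under names without II for replicate 1 of both groups and with II for the other 3 libraries. No label says what II stands for, and these sets of names, called plain and II here, were used as a block in an alternative fit. No doublet detection was run.

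As a share of the kept cells, enteroendocrine cells were 21.8%, 27.7% and 23.2% in traced and 22.6% and 19.05% in non-traced libraries. The group means of 24.2% ± 3.07 (SD, n = 3) and 20.8% ± 2.53 (SD, n = 2) differed by 3.41 percentage points (exact two-sided permutation test, p = 0.4, where 0.2 is the smallest p that 3 against 2 libraries can give), and the groups overlapped.

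The genes of the rule are given as a description. Chga stood at 6425, 11852 and 10257 CPM (counts scaled to the total of the tested genes, 75.24% to 76.89% of a library's sum, and its TMM factor) in the summed traced cells against 1332 and 5972 CPM in the non-traced cells, with no overlap. Cpe went the other way, with 813, 2027 and 2193 CPM against 2885 and 3767 CPM. Chgb (22082, 28960 and 24229 against 12598 and 27654 CPM) and Neurod1 (1206, 1260 and 1626 against 1063 and 1525 CPM) overlapped between the groups. The 3 cells just inside the rule had summed levels of 12.6, 13.8 and 16.5 per 10000, the 3 cells just outside had 9.79, 9.55 and 7.52, and the median member had 111. Just 1 cell was kept out by the tuft limit alone. The 9 tuft markers in the files, the 3 of the rule among them, summed to between 0.151 and 2.79 per 10000 in the enteroendocrine cells of a library against 85.6 to 112 in its tuft cells. Of 8 leukocyte markers 5 were in the files, and none had a transcript in the 84 cells.

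The shares of cells with Neurog3, Tph1, Sct, Cck and Gip lay apart between the groups in every library, but none passed its test. Cells with Neurog3 at 2 or more per 10000 made up 52.6%, 27.8% and 31.2% of the traced libraries against 15.8% and 8.33% of the non-traced ones, or 20 of 53 against 4 of 31 cells. Cells with Tph1 at 2 or more made up 47.4%, 38.9% and 31.2% against 15.8% and 16.7%, or 21 of 53 against 5 of 31 cells. Every traced library was above both non-traced libraries for each gene.

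The hormone genes were counted at 10 or more per 10000. Tac1, made by enterochromaffin cells, reached that level in 47.4%, 38.9% and 31.2% of the traced cells against 10.5% and 16.7% of the non-traced cells. Gip reached it in 10.5%, 22.2% and 12.5% against 36.8% and 58.3%, Sct in 26.3%, 16.7% and 25% against 73.7% and 50.0%, and Cck in 21.1%, 22.2% and 12.5% against 52.6% and 33.3%. The groups did not overlap for any of these genes, nor for Sst (mean 3.94% against 12.1%).

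The shares of Ghrl cells (25.2% ± 11.2 against 24.6% ± 12.4), Gcg cells (7.77% ± 4.10 against 5.26% ± 7.44), Pyy cells (1.85% ± 3.21 against 5.26% ± 7.44) and Nts cells (0 against 2.63% ± 3.72) overlapped (SD, n = 3 and 2). With 3 against 2 libraries the exact two-sided permutation test cannot fall below p = 0.2. It gave that value for Neurog3, Tph1, Tac1, Sct, Cck, Gip and Sst, and 0.314 after adjustment over the 11 genes, so no share passed. Thinning each cell to 3000 transcripts left the means at 35.1% against 9.43% for Neurog3, 35.3% against 16.2% for Tph1, 32.1% against 61.8% for Sct, 20.4% against 47.1% for Cck and 17.2% against 47.6% for Gip. For Tac1 it left 39.2% against 24.6%, with an exact permutation p of 0.4. The 114 tuft cells of the same libraries, with a median of 7687 transcripts against 6619 in the enteroendocrine cells, served as the background of free RNA. None of them reached the level of Neurog3, Tph1, Tac1 or Sct (a count of 0 allows up to 2.63%, counting error only), and 1 reached that of Gip.

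**Figure D1:**
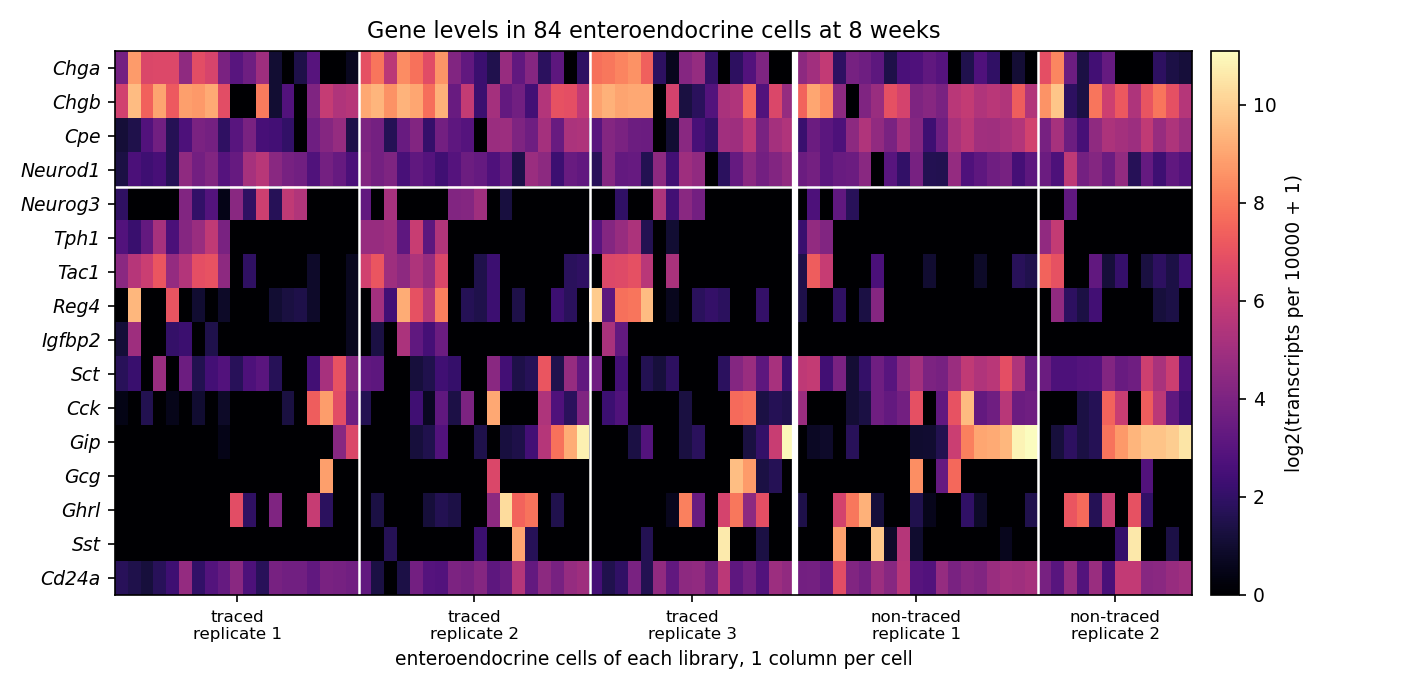
Levels of 16 genes (rows) in the 84 enteroendocrine cells (columns), as log2(transcripts per 10000 + 1), with the genes of the rule above the white line. Columns run by library, then from Tph1 cells to Neurog3 cells to others, each in rising order of Gip. This order puts Tph1 cells first and cells rich in Gip last in every library. Tph1 columns take a larger share of each traced library, and Gip columns a larger share of each non-traced library. Reg4 is bright in some Tph1 columns of the traced libraries.

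**Figure D2:**
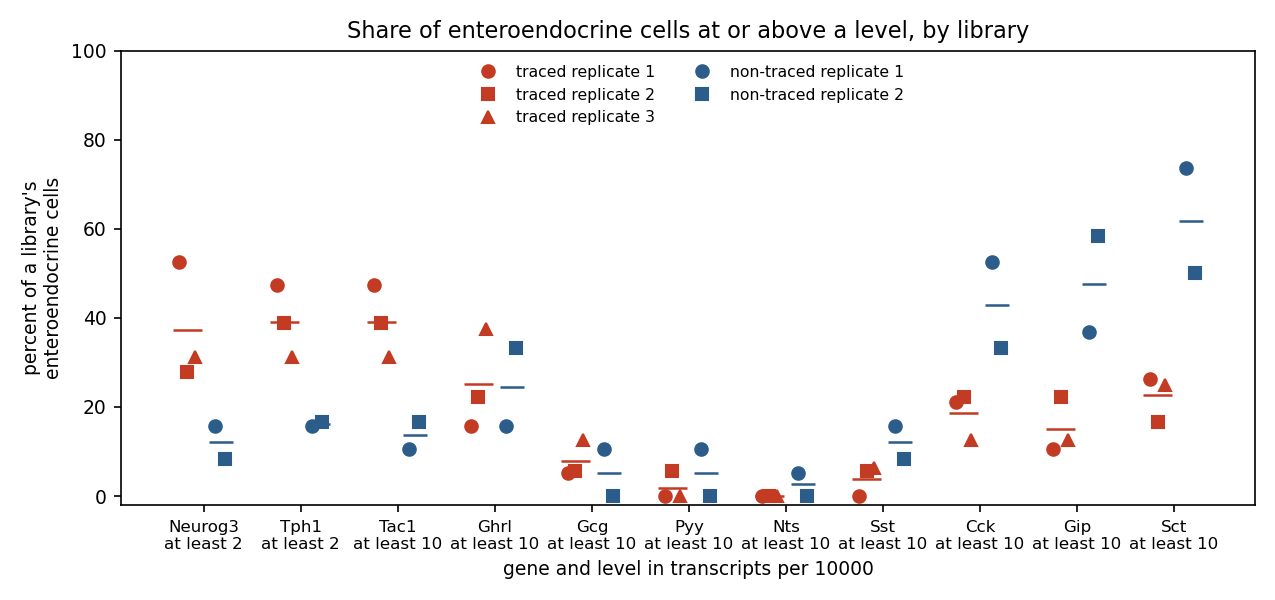
Share of each library's enteroendocrine cells (y axis, percent) at or above the stated level of 11 genes (x axis), with 1 point per library and a bar at each group's mean. The traced points lie above the non-traced ones for Neurog3, Tph1 and Tac1 and below them for Sst, Cck, Gip and Sct, and the groups overlap for Ghrl, Gcg and Pyy.

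Placed in exclusive sets, 21 traced and 5 non-traced cells carried Tph1, 13 and 3 carried Neurog3 without Tph1, and 19 and 23 carried neither. Tph1 and Neurog3 met in 7 traced cells and 1 non-traced cell. Among the cells with neither gene, Gip was the leading hormone in 6 of 19 traced and 11 of 23 non-traced cells, and each other hormone led in 3 cells or fewer per group. The sets differed in the genes of the rule itself. Cells with Tph1 had median levels of 116 for Chga and 517 for Chgb per 10000 and 10.5 for Cpe, while Gip cells had 0.876, 54.4 and 34.5. Neurog3 cells without Tph1 had a median of 12.96 for Neurod1, against 8.05 in Tph1 cells and 8.94 in Gip cells.

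Across all genes, 6 of the 2826 genes that passed the filter on low counts differed between traced and non-traced enteroendocrine cells (0.212%, edgeR quasi-likelihood test with a Benjamini-Hochberg adjusted p under 0.05). Neurog3, Reg4, Igfbp2, Ube2c and Top2a were higher in traced cells (0.177%), and Cd177 was lower (0.0354%). For 684 genes every traced library lay on the same side of both non-traced libraries. These were 24.2% of those tested, with 11.6% higher and 12.6% lower in traced cells. With the name set as a block, 40 genes passed (1.42%, 17 higher and 23 lower), the 6 genes above among them. Without traced replicate 3 no gene passed, although 233 had an unadjusted p under 0.05, and without non-traced replicate 2 the number was 43, so the count itself rests on single libraries.

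**Figure D3:**
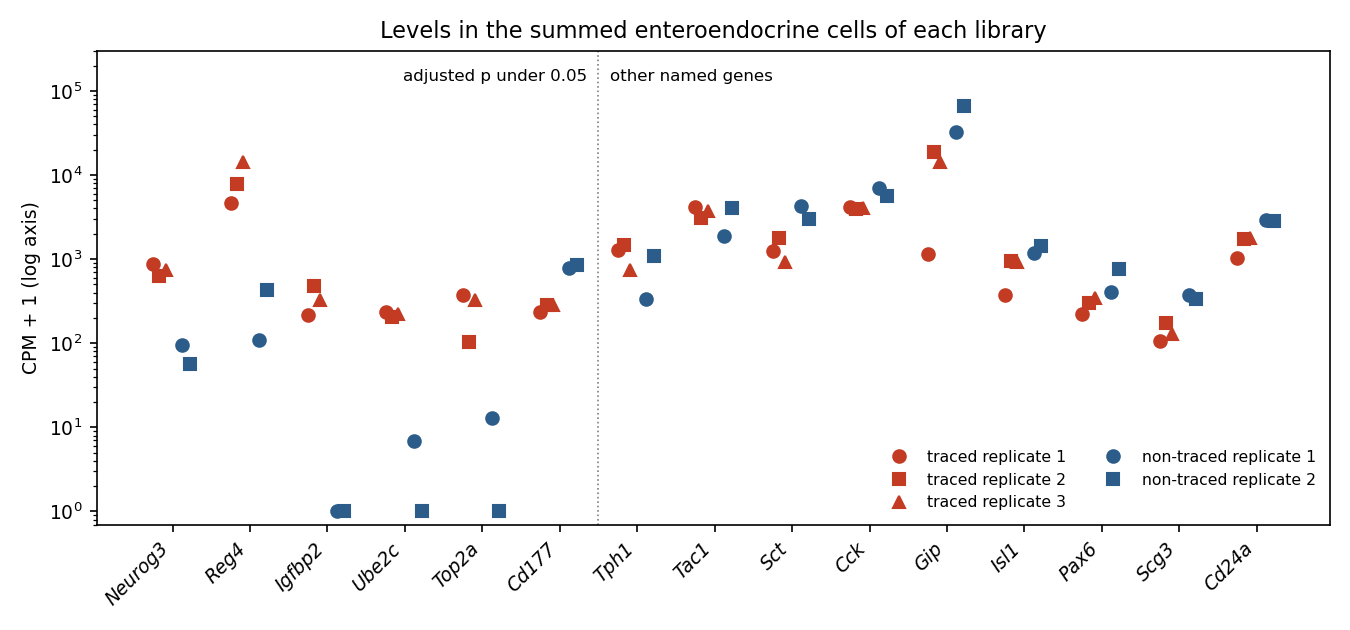
CPM + 1 on a log axis for the 6 genes past the threshold (left of the dotted line) and 9 other named genes (right) in the summed enteroendocrine cells of each library. Neurog3, Reg4, Igfbp2, Ube2c and Top2a lie higher and Cd177 lower in the traced libraries, while Tph1 and Tac1 overlap between the groups.

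Neurog3 was measured at 873, 630 and 748 CPM in the traced libraries, while the non-traced libraries had 95.6 and 55.1 CPM. All 3 traced values were above both non-traced values. The log2 fold change was 3.17 (SE 0.36, edgeR adjusted p = 0.00462), with log2 differences of 2.97 within the plain and 3.26 within the II libraries. Its transcripts came from 22 of 53 traced and 4 of 31 non-traced cells, and 14.3% of them from a single cell. In such sums, more cells with the gene and more transcripts per cell both raise a level. Tuft cells held no Neurog3 transcript. Neurog3 lies on chromosome 10 at 62133090 to 62134763 (GRCm38.p6).

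Of 20 endocrine progenitor genes, 8 could be tested, and Neurog3 alone passed, while the median log2 fold change of the 8 was 0.46 against 0.0095 over all genes tested. Gadd45a, a growth arrest gene, was measured at 473, 802 and 529 CPM against 293 and 312 CPM without overlap (0.99, adjusted p = 0.419). Dpysl5, a cytoskeletal regulator, was measured at 147, 125.96 and 51.6 CPM against 29.9 and 0 CPM (2.32, adjusted p = 0.51). Neither passed the threshold.

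Of 25 endocrine transcription factors, 19 could be tested and none passed in the main comparison or with the name set as a block. At an unadjusted p under 0.05 the whole comparison held 221 genes. The median of the 19 was −0.24, and 8 members had positive estimates. Without overlap 4 were higher and 4 lower, where 11.6% and 12.6% of all genes tested were. Higher without overlap were Foxa3 (140, 252 and 129 against 41.8 and 36.7 CPM), Sox4 (400, 607 and 477 against 227 and 220 CPM), Neurod2 (200, 80.2 and 142 against 59.7 and 18.4 CPM) and Myt1 (233, 206 and 181 against 119 and 165 CPM). Sox4 and Myt1 are known from endocrine precursors. Their log2 fold changes were 2.05, 1.12, 1.59 and 0.65, with edgeR adjusted p-values of 0.215, 0.253, 0.51 and 0.676.

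The 4 factors lower without overlap were Isl1, Pax6, Hhex and Etv1. Isl1 was measured at 373, 950 and 929 CPM against 1171 and 1415 CPM (−0.80, adjusted p = 0.642), and Pax6 at 220, 298 and 348 CPM against 400 and 753 CPM (−0.96, adjusted p = 0.507). Hhex, a homeobox factor known from somatostatin cells, was measured at 0, 22.9 and 38.7 CPM against 185 and 147 CPM (−3.29, SE 0.81, adjusted p = 0.215), with 37.7% of its transcripts in 1 cell. Etv1, an ETS family factor, was measured at 26.7, 125.96 and 129 CPM against 161 and 147 CPM (−0.90, adjusted p = 0.751). Pax4, an early endocrine factor, was measured at 173, 149 and 25.8 CPM against 41.8 and 73.5 CPM and overlapped. Without the cells that carried Neurog3 or Tph1 the log2 fold changes of Isl1 and Pax6 were 0.21 and 0.06, and no gene of 985 passed there, with 12 at an unadjusted p under 0.05.

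The summed hormone levels followed the cell shares in part. Of 19 peptide hormone genes, 12 were in the files and 9 could be tested. None passed the main threshold, with a median of −1.30 and 3 genes lower without overlap, where 12.6% of all genes tested were. Gip was measured at 1140, 18848 and 14243 CPM in the traced cells and at 32185 and 65561 CPM in the non-traced cells. Both non-traced values were above all traced values. In a cell of non-traced replicate 1 with Gip at 1864 per 10000, the count was at the upper limit that the molecular barcodes allow. The Gip level of that library may therefore be too low. The log2 fold change was −2.10 (SE 0.84, adjusted p = 0.564), and with the name set as a block it was −3.25 (edgeR adjusted p = 0.00557).

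Sct was measured at 1240, 1798 and 916 CPM against 4235 and 2977 CPM, without overlap. Its log2 fold change was −1.46 (SE 0.34, adjusted p = 0.191), and −1.42 with the name set as a block (adjusted p = 0.0252). It lay at −1.76 within the plain and −1.20 within the II libraries. Cck was measured at 4186, 3939 and 4025 CPM against 7085 and 5696 CPM (−0.66, adjusted p = 0.69), again without overlap. Without the 22 Gip cells the Cck estimate turned to 2.12 (adjusted p = 0.49).

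The other hormones overlapped between the groups. Ghrl was measured at 920, 12390 and 6619 CPM against 4062 and 5218 CPM, Gcg at 2420, 561 and 11470 CPM against 3393 and 73.5 CPM, and Sst at 0, 3527 and 8128 CPM against 6529 and 12532 CPM. A single cell held 31.8%, 31.8% and 25.6% of the transcripts, and the genes were detected in 37, 10 and 16 cells. Pyy was measured at 0, 218 and 90.3 CPM against 1105 and 165 CPM, with 73.7% in a single cell (−2.93, adjusted p = 0.285). Some settings brought calls: Ghrl was at 4.92 (edgeR adjusted p = 0.0146) without cells rich in Paneth, goblet or enterocyte markers, and Pyy at −5.02 (0.0215) without Gip cells and −3.59 (2.04e-17) without non-traced replicate 2. With the replicate block Sst was at −3.96 (2.1e-31) and Pyy at −2.93 (4.85e-12), and Pyy was at −2.92 (4.85e-12) with no filter on low counts. Iapp and Tac1 overlapped too.

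Genes of serotonin synthesis did not pass. Of 13 listed, 10 could be tested, with a median of 0.53 and 7 positive estimates. Tph1, the first enzyme, was measured at 1273, 1454 and 748 CPM against 335 and 1084 CPM (0.81, adjusted p = 0.739). The groups overlapped, and the difference was 1.87 within the plain and −0.05 within the II libraries. Lmx1a, a transcription factor of enterochromaffin cells, was measured at 320, 286 and 194 CPM against 167 and 73.5 CPM without overlap (0.98, adjusted p = 0.528). The vesicular monoamine transporters Slc18a1 (0.54, adjusted p = 0.751) and Slc18a2 (2.74, adjusted p = 0.573) overlapped. Tac1 was measured at 4212, 3092 and 3729 CPM against 1906 and 4079 CPM. Within Tph1 cells it lay the other way without overlap, at 5071, 5367 and 8037 CPM in the traced against 9559 and 15027 CPM in the non-traced libraries (−0.97, adjusted p = 0.995).

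Reg4, a secreted lectin known from goblet and enterochromaffin cells, had the highest level among the genes that rose. It was measured at 4632, 7855 and 14089 CPM in the traced and at 108 and 423 CPM in the non-traced libraries, all traced values being above both others. The log2 fold change was 5.22 (SE 0.73, edgeR adjusted p = 0.00796), with 5.20 and 4.58 within the plain and II libraries. Reg4 lies on chromosome 3 at 98222138 to 98236748 (GRCm38.p6).

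Its transcripts were concentrated in Tph1 cells. The summed level was 122 per 10000 in the 21 traced Tph1 cells, 0.809 in the traced Neurog3 cells without Tph1 and 0.954 in the other traced cells. The 5 non-traced Tph1 cells had 3.79 per 10000. Of 13 enteroendocrine cells with Reg4 at 10 or more per 10000, 12 carried Tph1 and 11 were traced. The median over Tph1 cells was 0, 48.3 and 241 per 10000 in traced replicates 1 to 3, so the libraries differed widely, and the highest cell had 977. In tuft cells, as a background, Reg4 was at 81.2 to 90.7 CPM in the traced and 10.98 to 38.97 CPM in the non-traced libraries.

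Igfbp2, a binding protein of insulin-like growth factors, was found in traced cells only. It was measured at 213, 481 and 323 CPM in the traced libraries, and no transcript was found in the 222230 and 71610 transcripts of the non-traced libraries. The level was at least 23.4-fold higher in traced cells, taking 3 transcripts over the non-traced group as the floor (edgeR adjusted p = 0.00497). The gene was detected in 13 of 53 traced and 0 of 31 non-traced cells, and 12 of the 13 carried Tph1. A count of 0 in 31 cells allows a share of up to 9.68%, counting error only, but just 5 of these 31 cells carried Tph1. Within Tph1 cells Igfbp2 was detected in 12 of 21 traced and 0 of 5 non-traced cells. So few non-traced cells cannot set a narrow limit there. Igfbp2 lies on chromosome 1 at 72824480 to 72852474 (GRCm38.p6).

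Afp and Pgc were higher in every traced library but did not pass the main threshold. Afp, the fetal plasma protein alpha-fetoprotein, was measured at 147, 561 and 1471 CPM against 11.9 and 18.4 CPM (adjusted p = 0.107). The ratio of summed levels was 43.8 (95% interval 14.7 to 214, counting error only), with 41.9% of the transcripts in 1 cell. Pgc, the pepsinogen progastricsin, was measured at 320, 550 and 297 CPM against 29.9 and 165 CPM (2.44, SE 0.56, adjusted p = 0.178). With the name set as a block the edgeR adjusted p was 0.00779 for Afp and 0.0349 for Pgc. Of the 13 cells with high Reg4, 11 held Pgc, 8 held Igfbp2 and 7 held Afp, against 8, 5 and 7 of the other 71 cells.

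Within the 26 Tph1 cells, whose CPM are scaled to the sum of all genes, 9, 7 and 5 from the traced and 3 and 2 from the non-traced libraries, 607 genes could be tested and 3 passed (0.494%). Igfbp2 (250, 854 and 913 CPM against 0 and 0) and Pgc (371, 935 and 804 CPM against 31.1 and 71.9) were higher in traced cells, and Sct (387, 305 and 329 CPM against 3892 and 791) was lower, each with an edgeR adjusted p of 0.0292. Reg4 was at 5562, 13784 and 39671 CPM against 31.1 and 1222 CPM there (5.21, SE 1.17, adjusted p = 0.0537). These Tph1 cells were selected by their own transcripts after the data were seen. The 2 non-traced sums held 32115 and 13908 transcripts, so the comparison rested on 5 non-traced cells.

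Ube2c, the ubiquitin-conjugating enzyme that drives cyclin destruction at mitosis, and Top2a, the topoisomerase of replicating and dividing cells, were the 2 cell cycle genes that passed. Their promoters are shown because these genes moved together, as the first 250 bases of each window in the RefSeq promoter table (GRCm38.p6), 5′ to 3′ on the gene's strand. The Ube2c window ends at the gene's start, and 10 bases of the Top2a window lie inside the longest RefSeq gene model. Capitals mark matches to CCAAT and to TTTGAA, on either strand (ATTGG and TTCAAA are the reverse complements), which are known as the CCAAT box and the cell cycle homology region of mitotic genes.
Ube2c promoter, chr2:164769679-164769928, plus strand: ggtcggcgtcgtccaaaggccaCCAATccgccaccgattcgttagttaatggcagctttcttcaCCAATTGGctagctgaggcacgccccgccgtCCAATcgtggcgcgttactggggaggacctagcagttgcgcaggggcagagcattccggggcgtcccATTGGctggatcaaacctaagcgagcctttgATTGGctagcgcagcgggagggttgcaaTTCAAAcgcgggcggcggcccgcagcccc
Top2a promoter, chr11:99024190-99024439, minus strand: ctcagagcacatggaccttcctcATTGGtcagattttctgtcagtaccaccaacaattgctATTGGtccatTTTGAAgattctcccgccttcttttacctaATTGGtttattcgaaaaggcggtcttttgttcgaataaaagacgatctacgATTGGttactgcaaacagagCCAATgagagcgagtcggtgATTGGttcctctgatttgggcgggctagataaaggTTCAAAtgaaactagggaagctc
Both windows held 6 CCAAT matches, of which 1 pair overlaps in Ube2c. Of all 32851 RefSeq promoter windows of this length, 33.85% held at least 1 CCAAT match and 2.79% held 3 or more, and 15.99% held TTTGAA. Of the 27 S and G2/M phase genes listed, 23 had a promoter in the table. In the window with most matches 18 of these held CCAAT (78.26%), 7 held 3 or more (30.43%) and 8 held TTTGAA (34.78%). Counted the same way over all 27025 genes, the shares were 37.49%, 3.23% and 18.26%.

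Ube2c was measured at 233, 206 and 219 CPM in the traced and at 5.97 and 0 CPM in the non-traced libraries, or 70 transcripts against 1. The ratio of summed levels was 49.7 (95% interval 8.63 to 1990, counting error only), and the edgeR adjusted p was 0.00474. Top2a was measured at 373, 103 and 323 CPM against 11.9 and 0 CPM, or 90 transcripts against 2 (ratio 31.9, 8.59 to 268, edgeR adjusted p = 0.0335). For both genes every traced library was above both non-traced libraries. Without traced replicate 3 the edgeR adjusted p was 0.0673 for Ube2c and 0.327 for Top2a. Without traced replicate 1 it was 0.0539 for Ube2c. Leaving out non-traced replicate 1 put the log2 fold change of Top2a at 7.68. Without Neurog3 cells the adjusted p was 0.245 for both, and with limma, each cell weighted equally, 0.439 and 0.239. Without cells rich in Paneth, goblet or enterocyte markers Ube2c was at 0.492, while Top2a passed. Top2a was at 0.382 without the cell of most transcripts in each library. For each gene 14 of 19 settings kept the call, and a single cell held 23.5% and 25.2% of the transcripts.

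Of the 27 S and G2/M phase genes 7 could be tested. All 7 were higher without overlap, where 11.6% of all genes tested were, with a median of 1.82. Of the 7, 2 passed against 0.177% of all genes, and 5 passed with the name set as a block against 0.602%. Ube2c, Top2a and Mki67 had 1, 2 and 2 non-traced transcripts, so they passed the count filter through the traced libraries. The tested members are thus weighted towards higher genes. Untested Pcna (33.5, 2 and 5 against 16.2 and 3 transcripts), Mcm5, Mcm6, Tyms and Ccnb2 overlapped. Untested Ccnb1, Cdk1 and Birc5 were higher in every traced library. Mki67, a marker of cycling nuclei, was measured at 193, 45.8 and 206 CPM against 11.9 and 0 CPM, a ratio of 17.4 (4.56 to 148) with adjusted p = 0.215. The chromatin protein Hmgb2 was measured at 540, 309 and 348 CPM against 125 and 91.9 CPM (1.82, SE 0.37, adjusted p = 0.107, or 0.00557 with the name set as a block). Tubulin Tubb5 (1.63), stathmin Stmn1 (1.60) and the histone H2afz (0.66) had adjusted p-values of 0.234, 0.477 and 0.602.

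Ube2c was detected in 12 and Top2a in 14 of 53 traced cells, and each in 1 of 31 non-traced cells. Cells whose cycling markers summed to 10 or more per 10000 numbered 4, 1 and 2 in the traced and 0 and 0 in the non-traced libraries. These 7 cells had a median of 17175 transcripts against 6619 over all enteroendocrine cells and 15578 in kept cells outside the enteroendocrine and tuft sets. Of the 7, 4 carried Tph1 and 2 carried Neurog3, with a cell of traced replicate 1 in both counts. Another, from traced replicate 3, had the lowest sum of the rule's genes (12.6 per 10000), no Neurod1 transcript and stem markers at 60.3. Without these 7 cells Igfbp2, Neurog3 and Reg4 were the 3 genes that passed, and Ube2c and Top2a could not be tested. Since Top2a and Mki67 are among the markers that chose these cells, that fit cannot show whether the cell cycle difference rests on them. Among the 170 kept cells outside the enteroendocrine and tuft sets, 96 held Ube2c. Whether cell pairs under 1 barcode took part in the cell cycle signal was not tested.

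Cd177, a surface glycoprotein known from neutrophils, was the gene that fell. It was measured at 233, 286 and 284 CPM in the traced and at 788 and 845 CPM in the non-traced libraries, without overlap. The log2 fold change was −1.61 (SE 0.27, edgeR adjusted p = 0.0335), and −1.68 and −1.51 within the plain and II libraries. Its transcripts were in 20 of 53 traced and 23 of 31 non-traced cells. Among the sets its median level was highest in Sst cells, at 15.3 per 10000, and 0 in Tph1 cells. Leaving out traced replicate 1, 2 or 3 or non-traced replicate 1 raised the adjusted p to 0.213, 0.123, 0.327 and 0.065, and without Neurog3 cells it was 0.869. Cd177 lies on chromosome 7 at 24743983 to 24760334 (GRCm38.p6).

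Other genes lower without overlap, none past the main threshold, included Gm11992 (26.7, 57.3 and 129 against 305 and 294 CPM, −2.25), the myosin light chain Myl7 (240, 115 and 284 against 705 and 643 CPM, −1.66), Fam105a (−1.50) and the glycosyltransferase Galnt6 (−1.30). Their edgeR adjusted p-values were 0.107, 0.107, 0.176 and 0.215. Gm11992, Myl7 and Fam105a passed with the name set as a block, at 0.0204, 0.024 and 0.0218. On the other side, Tpbg (340, 218 and 361 against 83.6 and 129 CPM, 1.65) and Fam160a2 (300, 218 and 219 against 71.7 and 110 CPM, 1.59) were higher without overlap, each at an adjusted p of 0.176. The block brought them to 0.0349 and 0.0328.

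Of 17 secretory granule genes outside the rule, 11 could be tested. None passed, and the median was −0.63. Without overlap 6 were lower and 0 higher, where 12.6% and 11.6% of all genes tested were. The secretogranin Scg3 was measured at 107, 172 and 129 CPM against 376 and 331 CPM (−1.43, SE 0.30, adjusted p = 0.12, or 0.0252 with the name set as a block). The calcium-binding secretagogin Scgn was measured at 487, 1008 and 1019 CPM against 1266 and 1543 CPM (−0.76, adjusted p = 0.614). Resp18 (−0.92), Ptprn2 (−0.67) and Scg2 (−0.98) were lower without overlap too, with adjusted p-values of 0.461, 0.634 and 0.806. Without Neurog3 or Tph1 cells the estimates of Scgn and Scg2 were 0.32 and 0.11.

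Of 33 exocytosis and excitability genes 17 could be tested, with a median of −0.31 and 4 lower without overlap, a share near that of all genes in either direction (24.2%) and above that of genes lower (12.6%). The estimate was positive for 6, the largest being the vesicle GTPase Rab3c (293, 595 and 516 against 143 and 312 CPM, 1.16, adjusted p = 0.51), which overlapped. Abcc8, the sulfonylurea receptor of the ATP-sensitive potassium channel, was measured at 120, 286 and 155 CPM against 490 and 533 CPM (−1.48, SE 0.36, adjusted p = 0.201, or 0.0291 with the name set as a block). The calcium channel subunit Cacna2d1 was measured at 59.99, 115 and 103 CPM against 215 and 294 CPM (−1.46, adjusted p = 0.218, or 0.0349 with the block). Cplx2, a complexin of vesicle fusion, was measured at 387, 550 and 335 CPM against 562 and 1047 CPM (−0.88, adjusted p = 0.551). The groups did not overlap for any of these genes.

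Of 21 nutrient receptors and transporters only 4 could be tested, with a median of −1.30. The cannabinoid receptor Cnr1 was measured at 26.7, 103 and 103 CPM against 191 and 588 CPM (−2.26, SE 0.57, adjusted p = 0.215, or 0.00104 with the name set as a block). The sodium-glucose transporter Slc5a1 was measured at 213, 229 and 245 CPM against 466 and 496 CPM (−1.07, adjusted p = 0.218). The fatty acid receptor Ffar4 was measured at 26.7, 91.6 and 25.8 CPM against 137 and 129 CPM (−1.54, adjusted p = 0.602). All 3 were lower without overlap, where 12.6% of all genes tested were, and none passed the main threshold. The fatty acid receptor Ffar2 overlapped.

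**Figure D4:**
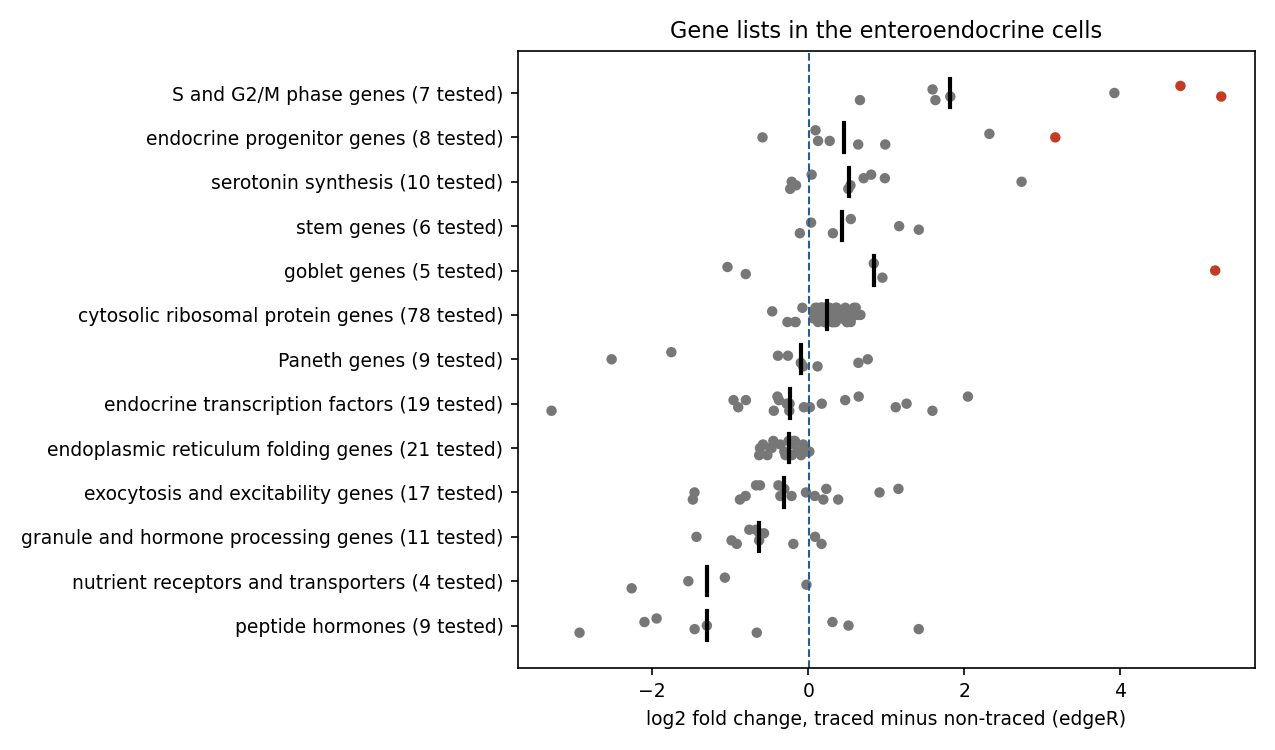
Log2 fold change, traced minus non-traced, of each tested gene (points) in 13 gene lists (rows), with black bars at list medians, red points past the adjusted threshold and a dashed line at the median of all genes tested. Of 27 S and G2/M phase genes listed, the 7 tested all lie right of 0, with a median of 1.82. Ube2c, Top2a and Mki67 passed the count filter through the traced libraries, and some untested members overlapped between the groups. The hormone, nutrient receptor and granule lists have medians of −1.30, −1.30 and −0.63.

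The level of the sorting antigen differed with these sets. Cd24a was measured at 1026, 1718 and 1793 CPM in the traced and 2915 and 2830 CPM in the non-traced enteroendocrine cells, without overlap (−0.93, SE 0.32, adjusted p = 0.463, or 0.0352 with the name set as a block). By set, its median was 5.47 per 10000 in Tph1 cells, 15.9 in Neurog3 cells without Tph1, 24.1 in Gip cells and 49.4 in Sst cells, against 71.2 in tuft cells. Within Tph1 cells it was at 532, 569 and 548 CPM in the traced and 1152 and 1007 CPM in the non-traced libraries (−0.96, adjusted p = 0.995). The part that the CD24 gate has in the difference between the groups was not tested.

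Markers of other lineages were looked at for the same cells. Paneth markers summed to 34.6 to 52.1 per 10000 in the enteroendocrine cells and 30.7 to 49.4 in the tuft cells of the same libraries. Of 17 Paneth genes 9 could be tested, and none passed. Among them Defa20 (19.996, 103 and 77.4 against 203 and 588 CPM, −2.52, adjusted p = 0.178, or 0.000874 with the name set as a block) and Defa5 (−1.76, adjusted p = 0.386) were lower without overlap, as was Defa24 (−0.26). Mptx2, a mucosal pentraxin, was higher without overlap (273, 275 and 297 against 155 and 184 CPM, 0.76, adjusted p = 0.551), and Defa17 (0.64) and the intelectin Itln1 (0.12) overlapped. The alpha-defensins are a family of near-identical copies, so reads may have been divided between them and their values are uncertain.

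Of the 10 goblet genes 5 could be tested, and Reg4 alone passed. Tff3 was measured at 1606, 1821 and 2529 CPM against 693 and 1580 CPM (0.84, adjusted p = 0.624), and Spink4 at 313, 252 and 335 CPM against 639 and 588 CPM (−1.04, adjusted p = 0.227). The goblet markers summed to 16.5, 17.4 and 24.2 per 10000 in traced and 12.5 and 18.5 in non-traced cells, against 2.46 to 6.38 in tuft cells. Stem cell markers summed to 6.76 to 8.72 per 10000 in traced and 3.37 and 7.31 in non-traced cells. Of 12 stem genes 6 could be tested and none passed. Prom1 (447, 298 and 426 against 209 and 110 CPM, 1.17, adjusted p = 0.335) and Cdca7 (1.42, adjusted p = 0.419) were higher without overlap. Lgr5, the gene of the tracing promoter, had 79.98, 80.2 and 25.8 CPM in traced cells against 77.7 and 18.4 CPM and was below the filter. The part of free RNA and of other cell types in these values was not tested.

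For general cell machinery the medians were 0.25 for 78 cytosolic ribosomal protein genes, 0.06 for 73 nuclear oxidative phosphorylation genes, −0.25 for 21 endoplasmic reticulum folding genes, 0.11 for 9 immediate early genes and −0.11 for 8 genes of antigen presentation. None of their genes passed.

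To see which differences were particular to enteroendocrine cells, the traced effect was compared with that in 114 tuft cells, of which the 5 libraries held 16, 13, 13, 41 and 31. CPM of tuft cells are scaled to the sum of all genes and a TMM factor, so levels are compared within a cell type only. The difference between the effects passed for 26 of 4172 genes (0.623%, edgeR with the library as a block), 16 of them higher (0.384%) and 10 lower (0.24%) in the enteroendocrine comparison. Reg4 was higher by 3.05 on the log2 scale (SE 0.65, adjusted p = 0.00136), since it was at 8859 against 265 CPM in enteroendocrine and 85.3 against 24.97 CPM in tuft cells (means of traced against non-traced libraries). Without non-traced replicate 2 it was 3.22 (adjusted p = 0.344). Neurog3 had no transcript in the tuft cells and Igfbp2 none in the non-traced tuft cells, so the difference had no usable estimate for them. Cd177 did not differ by this test (−1.21, adjusted p = 0.889).

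The 4 largest of the 16 were cell cycle genes. Ube2c differed by 8.60 (SE 1.27, adjusted p = 3e-08), Mki67 by 6.03, Top2a by 5.51 and 2810417H13Rik, a factor bound to the replication clamp, by 4.50 (adjusted p-values 0.000222, 3e-08 and 0.0231). Hmgb2 differed by 2.73, and Stmn1 and Tubb5 by 2.36 and 1.53. In tuft cells the traced means of Ube2c, Mki67, Top2a, 2810417H13Rik and Hmgb2 were below the non-traced means. The groups overlapped there for Ube2c, Mki67 (6.98, 0 and 23.2 against 19.2 and 121 CPM) and Top2a (27.9, 73.5 and 23.2 against 27.4 and 212 CPM). They did not overlap for 2810417H13Rik and Hmgb2. Ube2c was at 0, 0 and 11.6 CPM in the traced libraries against 8.23 and 134 CPM, so that non-traced replicate 2 held most of its tuft signal. Without that library the differences were 6.16 for Ube2c, 4.51 for Mki67 and 3.82 for Top2a, with adjusted p-values of 0.248, 0.319 and 0.0796. Mki67 also lost its call without traced replicate 1 (5.44, adjusted p = 0.288).

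**Figure D5:**
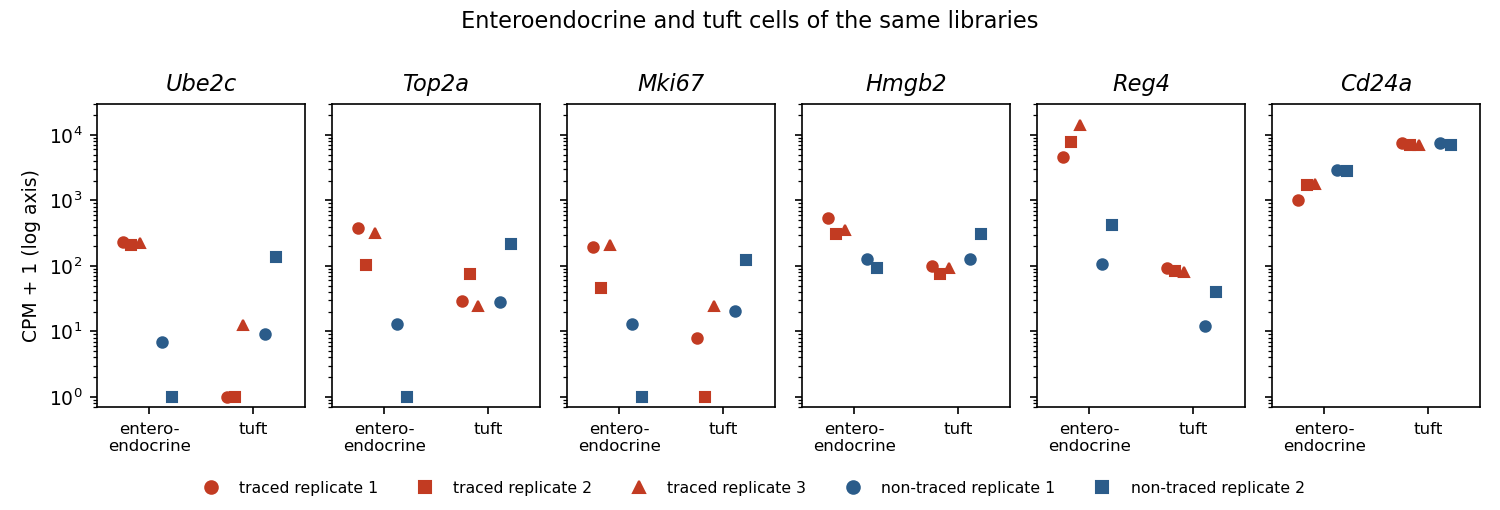
CPM + 1 on a log axis in the summed enteroendocrine and tuft cells of each library, for 6 genes whose traced effect differed between the cell types. Ube2c, Top2a, Mki67 and Hmgb2 are higher in traced enteroendocrine cells, while in tuft cells the highest value of each is in non-traced replicate 2.

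Sct (−1.53, adjusted p = 0.0344) and Cd24a (−1.04, adjusted p = 0.0257) differed in the same direction as within enteroendocrine cells. In tuft cells the means of traced against non-traced libraries were 7161 against 7333 CPM for Cd24a and 119 against 117 CPM for Sct. Neither passed in any of the 5 fits that left out 1 library: without non-traced replicate 2, for example, the adjusted p-values were 0.272 and 0.216. Reg3b, an antimicrobial lectin (4.05, adjusted p = 0.00147), was at 46.1 against 14.9 CPM in enteroendocrine and 25.2 against 194 CPM in tuft cells. Avil, Sh2d7 and Lrmp, genes of tuft cells, differed by −3.57, −3.30 and −3.19. They rested on 22, 29 and 15 transcripts in enteroendocrine cells, and Avil was at 119 CPM in non-traced replicate 1 against 0 in non-traced replicate 2. Without non-traced replicate 1 the Avil difference turned to 2.33 (adjusted p = 0.905). Xaf1 (−3.06) rested on 870 CPM in the tuft cells of traced replicate 3 alone, and without that library it was at −1.07 (adjusted p = 0.94). Sdcbp2, a syndecan-binding adaptor, differed by −2.34 (adjusted p = 0.00147).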

How the data were processed

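CEL-seq labels the 3′ ends of each cell's RNA with barcodes for the cell and the molecule. What the authors deposited are expected counts, that is transcripts of a gene in a cell after correction for collisions among 256 molecular barcodes (read from the values), without scaling. BWA 0.6.2-r126 and mm10 are given in the submitters' processing notes, and the gene models are not given in the sources used here. A combined table repeats these counts under other names, and the name set of a library (with or without II) was read from the name under which identical values stand there. The 7 genes of the rule were given no test.

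Cells were chosen with the stated rule, and the counts of each library's cells were summed and rounded. The library was the replicate. Genes were tested with edgeR 4.0.16 (TMM, filterByExpr, quasi-likelihood F test, Benjamini-Hochberg threshold 0.05) in R 4.3.3, shares with an exact permutation test. Alternatives used DESeq2 1.42.0, limma 3.58.1 (log2 of the value per 10000 + 0.1), other filters, gates and sets of cells, a block by name set and each library left out. Differences within a name set are of log2 CPM with a prior count of 2. The SE given with an edgeR log2 fold change is its absolute value divided by the square root of the F statistic. In simulated data with these libraries and depths the main test recovered 16% of 100 genes changed by 1 on the log2 scale. It recovered 71% of 100 changed by 2, with 4 false calls among 91, and the comparison with tuft cells recovered 0% and 24%. Simulated counts had the dispersion trend of the main fit, or its common dispersion of 0.0552 for the tuft comparison. The rates therefore do not cover genes that vary more between libraries, such as those resting on a few cells.

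Named genes were the largest changes past the threshold with at least 20 CPM and no overlap between groups, then the non-overlapping genes of lowest unadjusted p, up to 10 a direction, list members, and up to 5 genes a direction that differed from tuft cells. Other genes were named after their values were seen. Members, lists, rules and tests were chosen with earlier results of these data known. Positions and promoters are from RefSeq (GRCm38.p6). Intervals are at 95%, and like the floor of 3 counts they cover counting error only.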

Additional observations from a re-analysis of the deposited data

Results flagged for a closer look

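The following genes differed between the enteroendocrine and the tuft cells of the same libraries in their response to the trace, by an edgeR test of that difference. Higher in the enteroendocrine comparison were Ube2c (8.60 on the log2 scale), Mki67 (6.03), Top2a (5.51), 2810417H13Rik (4.50), Reg3b (4.05), Reg4 (3.05), Hmgb2 (2.73), Stmn1 (2.36) and Tubb5 (1.53). Lower were Avil (−3.57), Sh2d7 (−3.30), Lrmp (−3.19), Xaf1 (−3.06), Sdcbp2 (−2.34), Sct (−1.53) and Cd24a (−1.04). Of these 16 genes, only Hmgb2 passed in each of the 5 fits that left out 1 library (2.16 to 3.93).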

How the results depend on the processing

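The count of 6 genes became 10 with at least 5000 transcripts per cell, 67 with no filter on low counts, 40 with the name set as a block and 128 with the replicate block, where 4 libraries entered. The correlation between libraries of the same number was 0.327. With 2 libraries per group both pairs give the same value by construction, so it cannot tell whether the numbers pair the samples. In those 4 libraries the numbers also coincide with the name sets. The main fit used no replicate block. Without the cell of most transcripts in each library the count of genes was 3. Sets of cells chosen after seeing the data gave 1 without Tph1 cells, 0 without Neurog3 or Tph1 cells, 3 in Tph1 cells only and 3 without cycling cells, and the planned set without Neurog3 cells gave 1. Leaving out 1 library gave 0 to 43 genes, and 5 to 56 for the difference from tuft cells, which was 42 with a gate of 50 per 10000. DESeq2 called 9 genes and limma with equal weight per cell called 5.
The Gcg share difference turned to −1.40 percentage points with 1500 transcripts per cell, −2.75 without non-traced replicate 2 and −4.29 with levels halved. That of Ghrl turned to −5.56 without traced replicate 3, −8.16 without non-traced replicate 1 and −3.23 with levels doubled, and that of Pyy to 1.85 without non-traced replicate 1. On the log2 scale, Cck turned to 2.12 without Gip cells and 0.63 without Neurog3 or Tph1 cells. Without the latter, Isl1 (0.21), Pax6 (0.059), Scg2 (0.11), Scgn (0.32) and Tff3 (−0.029) turned too, and Scg2 (0.32), Tac1 (−0.49) and Tph1 (−0.021) turned without Gip cells. In Tph1 cells only, Tac1 (−0.97), Tph1 (−0.50), Slc18a1 (−0.27) and Lmx1a (−0.35) turned. Ghrl was −0.48 with the name set as a block, −0.40 with limma, −0.39 with the replicate block and −0.28 without traced replicate 2. Gcg was −0.24 without traced replicate 3, and −3.05 without cells rich in Paneth, goblet or enterocyte markers, where Sst was 1.90. Tac1 was −0.097 without non-traced replicate 1. With 1 library left out the highest or lowest values on the other side were 7.77 for the Gcg, 9.38 for the Ghrl and −8.67 for the Pyy share, and 6.05 for Gcg, 1.05 for Ghrl and 0.97 for Tac1. The cause was not tested.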
